A study of Mus musculus with 2 samples.

Results

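The genes described here are 45 DNA repair genes of 6 pathways, namely damage signalling, homologous recombination, end joining, base excision, nucleotide excision and mismatch repair, chosen by name. Of these, 43 were measured, out of 22180 genes in all. The tissue was dorsal skin of BALB/cAJcl mice, male and aged 7 weeks, and each of the groups, saline and FGF18, has 1 array. FGF18 belongs to the fibroblast growth factors, and the title of the series concerns its part in hair cycle rest and in the radioresistance of follicles. Hair was removed to start follicle growth, and 6 days later 100 µg of FGF18 went into the peritoneum, dissolved in saline that held 5 µg/µl heparin. At 24 h after the injection the whole body received 6 Gy of γ-rays, and skin was taken 4 h after irradiation. The labels give this course for FGF18 and name the other sample as a saline control, without stating its irradiation, its heparin or the number of mice behind either sample. An effect of FGF18, of radiation or of heparin therefore cannot be told apart here, and with 1 array per group there are no replicates and no test. Apex1, an endonuclease of base excision, and Ddb2, a sensor of ultraviolet lesions, had no cluster named for 1 gene and were not analysed here.

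DNA repair runs in pathways that each take one kind of damage. Kinases and adaptor proteins sense broken ends, halt the cell cycle and gather repair proteins. Broken chromosomes are then joined end to end at any time of the cycle, or copied back from the sister chromatid during S and G2 phase by homologous recombination. Damaged bases and single-strand breaks go to base excision, bulky lesions to nucleotide excision and copying errors to mismatch repair. γ-rays make breaks and oxidised bases, and the dividing matrix of a growing hair follicle is known as one of the more radiosensitive parts of skin.

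Repair transcripts differed little between the arrays, and more of them were higher on the FGF18 array than lower. Of 43 measured genes 30 were higher, 10 lower and 3 equal. Among all 22180 genes 49.5% were higher and 45.5% lower. A difference is the FGF18 level minus the saline level, both as log2(intensity + 1), where 0.58 is 1.5-fold and folds of dim genes are understated. The median difference of the repair genes was 0.15, against 0.00 over all genes. Bright genes leaned upward as a whole, so the nearer comparison is with the 11090 genes whose mean over both arrays reached the median level over genes (4.15). Of those, 59.4% were higher and 38.0% lower, with a median difference of 0.07. Of the 38 repair genes at that level 27 (71.1%) were higher and 8 (21.1%) lower, and their median was 0.15. After subtraction of the trend of difference on level, 29 of 43 repair genes (67.4%) were higher and 14 lower, against 53.4% of all genes higher, and 4 repair genes near 0 changed sides.

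On the log2(intensity + 1) scale no repair gene reached 2-fold, a size that 1.32% of all genes reached, though the dim gene Palb2 passed it with no pseudocount (1.07) and after trend subtraction (1.01). The genes at or past 1.5-fold were Mdc1 and Palb2, both higher, which is 4.65% of those measured. Over all genes the shares past 1.5-fold were 2.61% on the higher and 4.15% on the lower side. Palb2 lay below the median level over genes. Among the 38 brighter repair genes Mdc1 was the 1 past 1.5-fold (2.63%), beside 3.64% of brighter genes on the higher side and 4.63% on the lower side, and the share of the repair genes was thus no larger than that of the array. Differences of 0.25 or more in size were seen in 32.6% of the measured repair genes and 37.4% of all genes, and at the median level or above in 28.9% and 40.4%. Clusters of probes for one gene disagreed with a standard deviation of 0.24 on this scale, which covers probe sets and not animals.

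**Figure D1:**
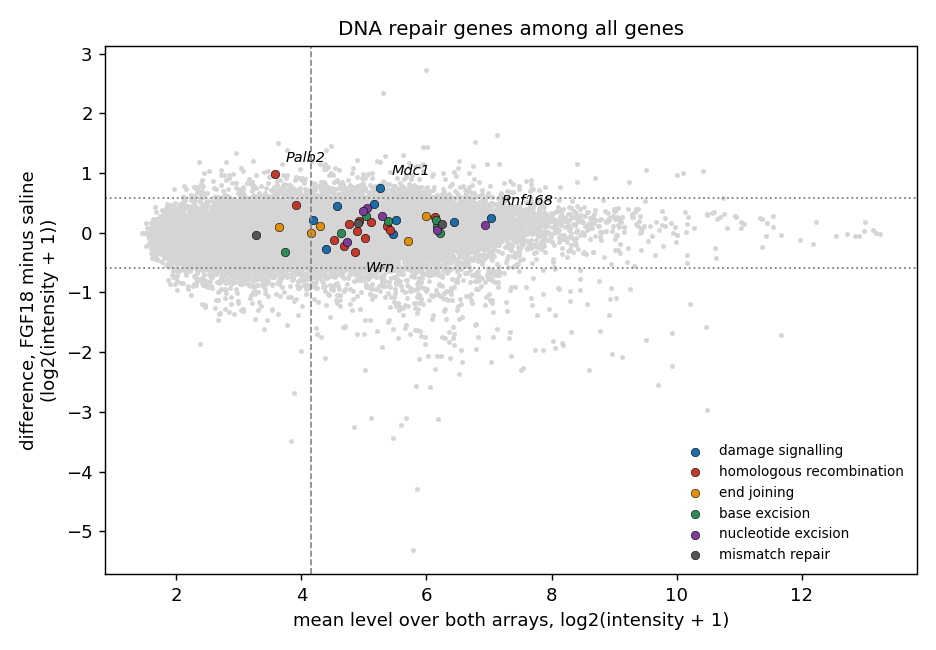
Difference between the arrays (FGF18 minus saline, log2(intensity + 1)) against the mean level over both arrays, with 1 grey point per gene and the repair genes coloured by pathway. The dashed line is the median level of 4.15 and the dotted lines are 1.5-fold. The repair genes lie in a band from -0.33 (Wrn) to 0.98 (Palb2), inside the spread of the other genes.

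Markers of differentiated epidermis and of the hair itself differed by more than the repair genes did. Those of differentiated keratinocytes were lower in 12 of 12 measured genes, with a median difference of -2.01 and a summed intensity of 17980 in saline and 4648 after FGF18. Inner root sheath markers were higher in 7 of 8 genes, with sums of 3128 and 6173, and hair shaft markers in 7 of 7, with sums of 323 and 576. Fibroblast markers were lower in 5 of 7 genes, with sums of 1123 and 1018, and skeletal muscle markers in 5 of 7, with sums of 5079 and 4608. Basal keratinocyte markers were higher in 4 of 6 genes, with a median of 0.09, but their sums were 1008 and 834. The brightest of them, Krt14, was 1.75-fold lower. Adipocyte markers were higher in 3 of 6, with sums of 491 and 698, and macrophage markers in 6 of 6, with sums of 155 and 204, while 3 of 4 dim T cell markers were lower, with sums of 43.1 and 41.1. Defining genes of epidermis and dermis were bright on both arrays, Krt10 at 5892 and 1799, Krt14 at 575 and 328 and Col1a1 at 408 and 323 in saline and FGF18, so both carry skin RNA. In whole skin, more cells of a type and more transcript per cell cannot be told apart, and the part of these shifts in the repair values was not tested.

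Recombination genes are known to be made mostly by cycling cells, so markers of those cells are given too. Of 20 replication genes, such as the Mcm helicase subunits, 15 were higher and 5 lower on the FGF18 array, with a median of 0.18. Their summed intensities were 799 in saline and 896 after FGF18. At or above the median level 13 of 18 were higher, beside 59.4% of all genes of that level. Mitosis genes leaned the other way, with 8 of 20 higher, 11 lower, a median of -0.09 and sums of 1252 and 1264. The part of cycling cells in the values below was not tested.

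Damage signalling had a median of 0.22 over 9 genes, 7 higher and 2 lower, next to 0.21 for nucleotide excision at the top of the 6 pathways. Atm and Atr encode the kinases that open the response, to breaks and to stalled forks. Atm read 41.7 in saline and 48.2 after FGF18, a difference of 0.21. Atr stood on a pair of clusters that disagreed, one at 26.9 and 36.7 and the other at 9.23 on both arrays, which averages to a difference of 0.22. Topbp1, which switches on Atr, read 80.9 and 91.5, a difference of 0.18.

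The adaptors that build the signal on chromatin around a break were higher in part. Mdc1, the scaffold that binds phosphorylated histone H2AX, read 28.6 in saline and 48.8 after FGF18, a difference of 0.75 or 1.68-fold. Of the 11090 brighter genes, 150 (1.35%) had a difference at least that high. Rnf8, the ubiquitin ligase that Mdc1 recruits, read 29.4 and 41.4, 1.39-fold higher, and 6.99% of brighter genes were at least as high. Rnf168, the ligase that extends the ubiquitin mark, read 118 and 141, a difference of 0.25, and 25.6% of brighter genes were at least as high. Trp53bp1, which binds that mark and steers breaks to end joining, read 43.3 and 42.9, a difference of -0.01. Mdc1, Rnf8 and Rnf168, consecutive steps of one cascade, lay on the higher side, as did 59.4% of brighter genes. Trp53bp1 at its end was level between the arrays, and a difference of the cascade as a whole was not tested.

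The checkpoint kinases lay on opposite sides. Chek2, which acts below Atm, read 19.5 in saline and 26.9 after FGF18, 1.36-fold higher. Chek1, which acts below Atr in S and G2 phase, read 22.1 and 18.0, 1.21-fold lower. Their differences were 0.45 and -0.28, beside the probe-set spread of 0.24.

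The promoter stretches of Mdc1 and Chek1 are shown because Mdc1 passed 1.5-fold and Chek1 stands in for Wrn, the lowest bright repair gene, whose promoter is not shown here. Each is the 250 bases before the gene's start, read 5′ to 3′ on the gene's strand, from RefSeq (GRCm38.p6). Capitals mark matches to motifs searched on both strands, which were E2F (TTTCCCGC, TTTGGCGC, TTTCGCGC or TTTGCCGC), CCAAT, ETS (CCGGAAGT), GC box (GGGCGG), CRE (TGACGTCA) and the full p53 site.
Mdc1 (chr17:35841248-35841497, plus strand): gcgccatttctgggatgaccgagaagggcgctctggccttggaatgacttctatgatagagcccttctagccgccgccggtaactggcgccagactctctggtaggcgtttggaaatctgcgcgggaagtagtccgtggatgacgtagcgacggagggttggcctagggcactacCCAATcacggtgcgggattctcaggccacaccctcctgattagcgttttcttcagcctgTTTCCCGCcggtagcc
Chek1 (chr9:36726659-36726908, minus strand): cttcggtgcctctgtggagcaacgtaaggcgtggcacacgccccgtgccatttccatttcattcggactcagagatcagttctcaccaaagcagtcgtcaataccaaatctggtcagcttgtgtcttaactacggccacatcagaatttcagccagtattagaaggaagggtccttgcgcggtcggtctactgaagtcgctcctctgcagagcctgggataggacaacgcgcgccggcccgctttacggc
The Mdc1 stretch holds TTTCCCGC, from 16 to 9 bases before the start, and a CCAAT box from 75 to 71 bases before it. The Chek1 stretch holds none of these letters, which says nothing about factors at that gene.

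**Figure D2:**
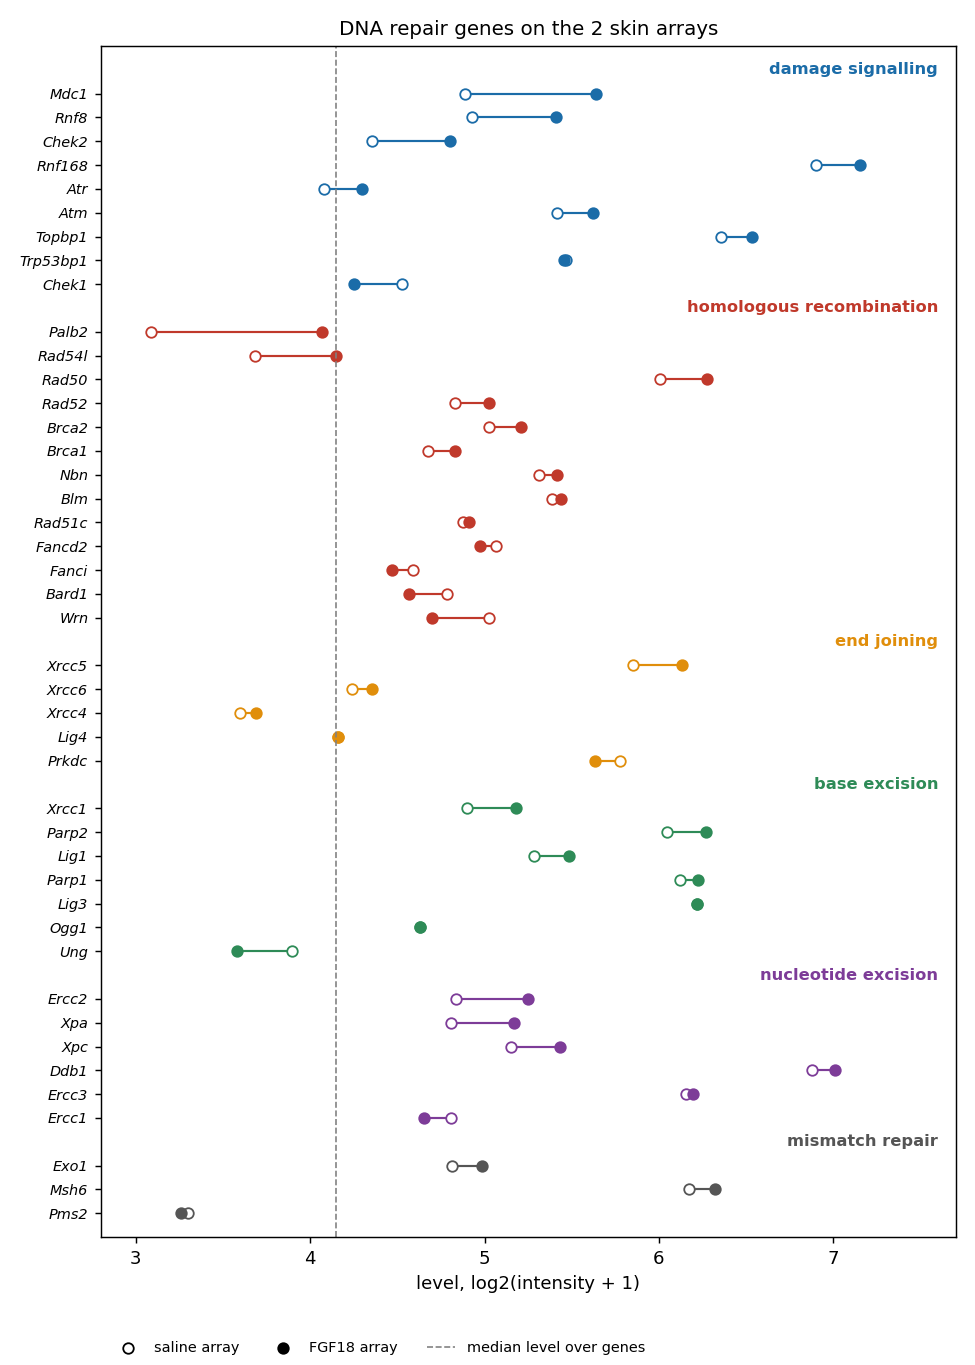
Levels of the 43 measured repair genes on the saline array (open circles) and the FGF18 array (filled circles), as log2(intensity + 1), ordered within each pathway from the highest to the lowest difference. The dashed line is the median level over genes. Mdc1 and Palb2 have the longest steps to the right, Wrn and Ung the longest to the left. Levels of different genes come from different probes and are not to be compared.

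Homologous recombination, which copies a break back from the sister chromatid, had 9 of 13 genes higher and 4 lower. Among all measured repair genes 30 of 43 were higher. The pathway median was 0.11, with a range from -0.33 to 0.98. Over the 11 genes that reached the median level it was 0.05, and 7 of them were higher, beside 59.4% of all brighter genes. Of the 4 lower genes Wrn alone (-0.33) lay beyond the probe-set spread of 0.24. The Brca genes, tumour suppressors of this pathway, differed little. Brca1 read 24.6 in saline and 27.5 after FGF18 (difference 0.15), and Brca2 read 31.5 and 36.0 (difference 0.18). Bard1, the obligate partner of Brca1 in its ubiquitin ligase, lay on the other side at 26.5 and 22.7, 1.16-fold lower.

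Palb2, which bridges Brca1 to Brca2, had a difference of 0.98. Its intensities were 7.51 in saline and 15.7 after FGF18. The saline value is below that array's median of 14.0 and is not shown above background, so no fold is given, and with a pseudocount of 16 the difference was 0.43, below the 0.54 of Mdc1, so which of these genes differed most depends on the pseudocount. Rad54l, a DNA translocase, read 11.9 and 16.8 and was also dim in saline. Rad52, an annealing protein, read 27.5 and 31.5, and Rad51c read 28.4 and 29.1. The upper end of this pathway therefore rests on 2 genes below the median level.

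The break-end complex genes Rad50 and Nbn were both slightly higher. Rad50 read 63.3 in saline and 76.5 after FGF18, a difference of 0.27, and Nbn read 38.6 and 41.6, a difference of 0.11. Mre11a, the nuclease of the same complex, which was listed with the other pathway genes, read 56.9 and 78.3, a difference of 0.45. All members of this trio lay on the higher side, as did 59.4% of brighter genes, and 45.3% of brighter genes were at least as high as Nbn.

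The helicases and the Fanconi pair were level or lower. Wrn, the Werner helicase, read 31.6 in saline and 24.9 after FGF18, 1.26-fold lower, the lowest difference of all the repair genes (-0.33), and 11.2% of brighter genes were at least as low. Blm, the Bloom helicase, read 40.9 and 42.4. Fancd2 and Fanci, which clamp on DNA together at interstrand crosslinks, differed by -0.09 (32.4 in saline, 30.4 after FGF18) and -0.12 (23.0 and 21.1). These partners thus sat close together, on the lower side.

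Palb2 starts back to back with Dctn5, a dynactin subunit gene, and the stretch between the starts is shown because Palb2 was one of the genes past 1.5-fold. The 94 bases are read on the Palb2 strand (RefSeq, GRCm38.p6), with a GC box in capitals.
Palb2 (chr7:122132947-122133040, minus strand): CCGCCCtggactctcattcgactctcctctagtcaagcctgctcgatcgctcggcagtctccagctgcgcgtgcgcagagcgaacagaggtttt
Dctn5 read 62.8 in saline and 67.8 after FGF18, a difference of 0.11. The size of the Palb2 difference is not fixed by these data, since its saline value is not shown above background.

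Divergent neighbours were looked up for every repair gene, since such pairs can share a promoter. In the RefSeq windows 14 repair genes had a neighbour starting on the other strand within 1000 bases, and for 10 pairs both genes were measured. In 6 pairs (60%) both lay on the same side and in 3 on opposite sides, and in the last Lig4 was equal on both arrays. Over all 841 divergent pairs with both genes measured, 47.2% lay on the same side. Npat, a histone gene regulator that starts 376 bases from Atm, read 36.7 and 47.2, a difference of 0.35 beside 0.21 for Atm. Nbr1, an autophagy receptor gene 152 bases from Brca1, had 0.20 beside 0.15, and Pinlyp, 694 bases from Xrcc1, had 0.25 beside 0.28. Tex14, a germ-cell gene 111 bases from Rad51c, read 14.2 and 11.4, a difference of -0.29 beside 0.04, and Rad51c turned to -0.01 after trend subtraction. The other pairs on opposite sides were Atr with the dim 1700065D16Rik (0.22 and -0.35) and Xrcc6 with Desi1 (0.11 and -0.10).

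**Figure D3:**
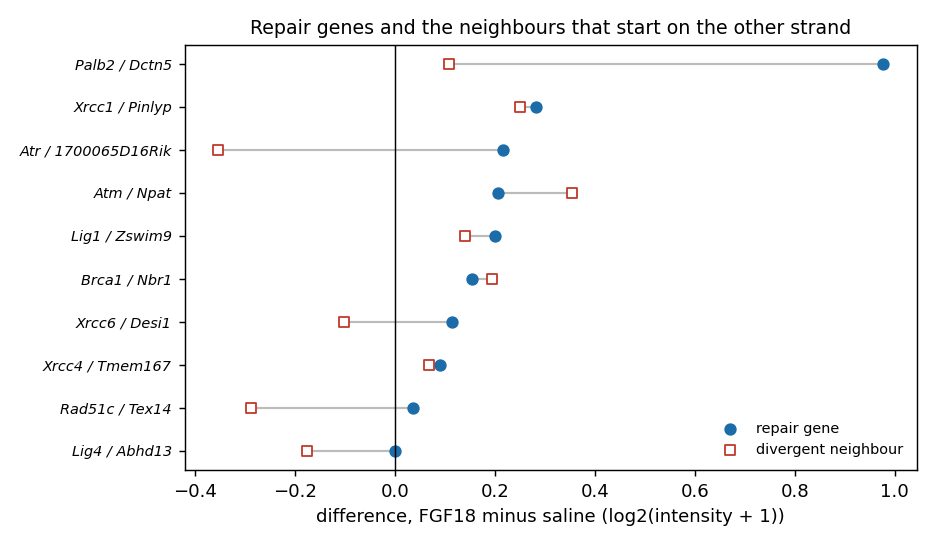
Difference between the arrays (FGF18 minus saline, log2(intensity + 1)) of 10 repair genes (filled circles) and of the gene that starts within 1000 bases on the other strand (open squares). Xrcc1 and Pinlyp lie close together at 0.28 and 0.25, and Rad51c and Tex14 lie at 0.04 and -0.29. The Palb2 point, at 0.98, rests on a saline value not shown above background.

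End joining, the ligation of broken ends with no template, had a median of 0.09 over 5 genes, with 3 higher, 1 lower and 1 equal. Xrcc5 and Xrcc6 encode the Ku80 and Ku70 subunits of the ring that slides onto an end. Xrcc5 read 56.7 in saline and 69.2 after FGF18, 1.22-fold higher, and Xrcc6 read 17.9 and 19.5, a difference of 0.11. Prkdc, the DNA-dependent kinase that Ku recruits, read 53.9 and 48.7, 1.11-fold lower. The ligation step was level, with Lig4 at 16.9 on both arrays and its partner Xrcc4 dim at 11.1 and 11.9. The subunits of one enzyme, Ku with Prkdc, lay on both sides of 0.

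Base excision, with the repair of single-strand breaks, had a median of 0.11 over 7 genes, 4 of them higher, 1 lower and 2 equal. Among the glycosylases that cut out damaged bases, Ogg1, which removes oxidised guanine, read 23.7 on both arrays. Ung, which removes uracil, read 13.9 in saline and 10.9 after FGF18, both dim, with a difference of -0.32. The break sensors Parp1 and Parp2, which build poly(ADP-ribose) at a nick, differed by 0.11 (68.6 in saline, 73.8 after FGF18) and 0.22 (65.1 and 76.1). Xrcc1, the scaffold they call in, read 28.8 and 35.3, 1.22-fold higher. Its ligase partner Lig3 read 73.4 on both arrays, and the replicative ligase gene Lig1 read 37.9 and 43.7, a difference of 0.20. The sensors and the scaffold were thus slightly higher, and Ogg1 and Lig3 were equal.

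Values exactly equal on both arrays were not peculiar to repair genes, since 2026 of 41345 clusters in the deposited table had them. Lig3, Lig4, Ogg1 and the dimmer Atr cluster were of this kind.

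Nucleotide excision, the removal of bulky lesions, had a median of 0.21 over 6 genes, with 5 higher and 1 lower. Xpc, which finds the distorted helix, read 34.5 in saline and 42.2 after FGF18, 1.22-fold higher, and Ddb1, which works with Ddb2 at ultraviolet lesions, read 117 and 128, a difference of 0.13. Xpa, which checks the lesion once the helix is open, read 26.9 and 35.0, 1.29-fold higher. Of the TFIIH helicases that open it, Ercc2 read 27.6 and 37.1, 1.33-fold higher, and Ercc3 read 70.2 and 72.2, a difference of 0.04. Ercc1, part of the nuclease that cuts on the 5′ side, was the lower one, at 27.0 and 24.2, 1.11-fold lower. All 6 genes were above the median level, and their differences ran from -0.15 to 0.41.

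Mismatch repair was represented by 3 genes. Msh6, of the complex that recognises mismatches, read 71.0 in saline and 78.9 after FGF18, a difference of 0.15. Exo1, the exonuclease that removes the faulty strand and also resects breaks, read 27.2 and 30.7, a difference of 0.17. Pms2, an endonuclease subunit, was dim at 8.86 and 8.59. The measured mismatch genes thus differed by less than the spread between probe sets.

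**Figure D4:**
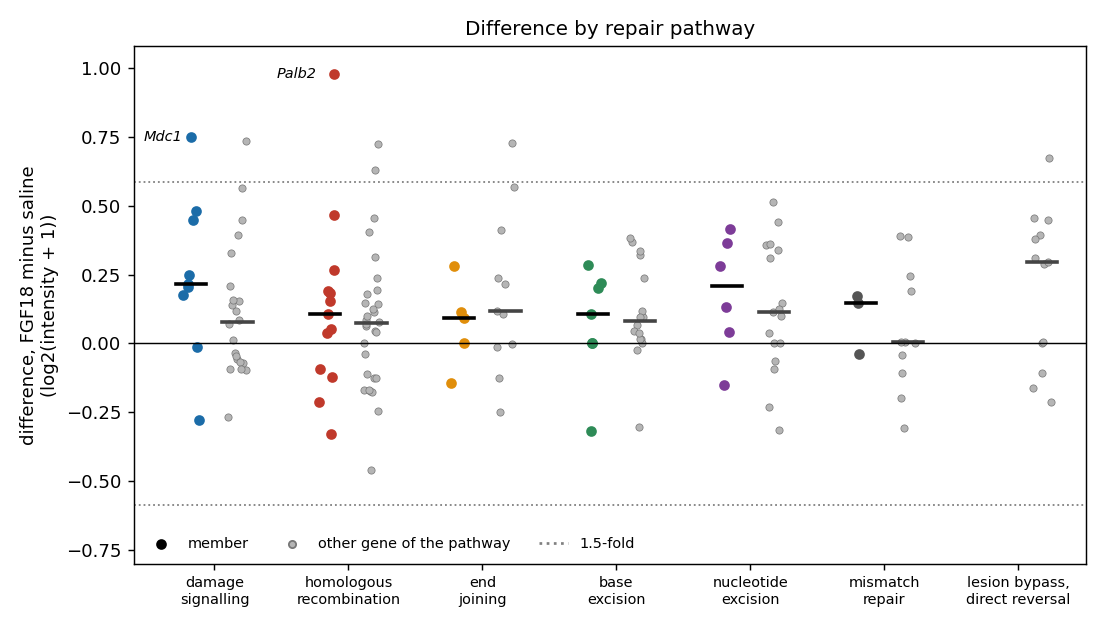
Difference between the arrays (FGF18 minus saline, log2(intensity + 1)) by pathway, with the 43 repair genes in colour, 120 other genes of the same pathways and of lesion bypass in grey, and bars at the medians. Dotted lines are 1.5-fold. The ranges of all pathways overlap, and the medians of the coloured genes lie between 0.09 (end joining) and 0.22 (damage signalling).

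The other measured genes of these pathways, 120 in all, lay nearer to the array as a whole. Of these 78 were higher, 36 lower and 6 equal, with a median of 0.09. At 1.5-fold or beyond there were 5 (4.17%) on the higher and 0 on the lower side, beside 2.61% and 4.15% of all genes. Of the 120 genes 99 were at or above the median level, and of those 62 (62.6%) were higher and 31 (31.3%) lower, beside 59.4% and 38.0% over all genes of that level. Their median was 0.09, beside 0.07, and 4 of them (4.04%) were at least 1.5-fold higher, beside 3.64%. Top3a, a topoisomerase that works with Blm, read 16.9 in saline and 28.5 after FGF18, 1.65-fold higher. Poli, which encodes a lesion bypass polymerase, read 22.2 and 36.1, 1.60-fold higher, and the Fanconi core gene Fance read 19.3 and 30.4, 1.55-fold higher. Aplf, an end joining scaffold, read 13.1 and 22.3, and the phosphatase gene Cdc25a, a target of Chek1, read 12.7 and 21.7. The last pair was below the saline array's median and has no fold.

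The counts and medians by pathway below include dim genes, and stand beside 49.5% higher and a median of 0.00 over all genes. At or above the median level, where 59.4% of all genes were higher, the counts were 11 of 19 in signalling and 11 of 18 in recombination. They were 5 of 9 in end joining, 10 of 13 in base excision and 11 of 17 in nucleotide excision. In mismatch repair 5 of 10 were higher at that level, and in lesion bypass and direct reversal 9 of 13. The other signalling genes were higher in 13 of 22, with a median of 0.08. Tipin, which protects stalled forks, read 22.7 in saline and 34.1 after FGF18, while Ppm1d, the phosphatase that switches signalling off, read 103 and 85.0. Other recombination genes were higher in 19 of 30, with a median of 0.07, and Fancm, the anchor of the Fanconi core, was the lowest bright one at 52.6 and 44.2. Other end joining genes were higher in 7 of 11, with a median of 0.12, and the accessory factor gene Paxx read 20.2 and 16.9.

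Among the other excision genes, 13 of 16 in base excision were higher, with a median of 0.08. Apex2, a relative of Apex1, read 26.9 in saline and 35.4 after FGF18, and Aptx, which cleans up abortive ligations, read 31.1 and 25.1. In nucleotide excision 11 of 17 were higher, with a median of 0.11. Uvssa, of the branch coupled to transcription, read 17.1 and 24.8, and Cdk7, the TFIIH kinase, read 43.7 and 34.9. In mismatch repair 6 of 11 were higher, with a median of 0.00, from the polymerase subunit gene Pold4 at 29.4 and 23.5 to Mlh3 at 15.4 and 20.4. Lesion bypass and direct reversal, a list with no counterpart among the 43 genes, had 9 of 13 higher and a median of 0.30, with the ubiquitin-conjugating enzyme gene Ube2a lowest at 35.6 and 30.6.

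Some repair genes are also known targets of p53, the transcription factor that broken DNA activates. Of the p53 targets listed, 21 were measured, 15 higher, 5 lower and 1 equal, with a median of 0.20. At or above the median level 14 of 19 were higher, with a median of 0.23, beside 59.4% and 0.07 over all genes of that level. Outside the repair lists 16 targets had 11 higher and 5 lower, with a median of 0.18, from Plk3, a stress kinase gene, at 71.1 and 37.3 to Gtse1, a G2 phase gene, at 28.0 and 50.2. Xpc had a difference of 0.28, the bypass polymerase gene Polk one of 0.46 (87.8 in saline, 121 after FGF18) and the sliding clamp gene Pcna one of 0.37 (147 and 190). Polh, another bypass polymerase gene, was equal at 42.2, and Fancc was dim at 10.7 and 11.7. Of the other targets, Cdkn1a read 193 in saline and 227 after FGF18, and Mdm2 read 110 and 102. Their differences, 0.23 and -0.12, were within the probe-set spread of 0.24. Besides Gtse1 and Plk3, the targets outside the repair lists that lay beyond that spread were Phlda3 and Eda2r (0.46 each), Ei24 (0.40), Btg2 (0.29) and Aen (0.27). On the lower side it was the dim Bbc3 (-0.44). Bax and Gadd45a, also listed as targets, had no cluster named for 1 gene.

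Promoter letters were examined as a feature that the choice of genes did not use. RefSeq windows of 300 bases, 250 before and 50 after a start, were held for 36 of the 45 genes. An E2F match, the letters bound by factors that drive S-phase genes, was present in 9 of 36 genes (25%), against 2.60% of 27025 genes. It was present in 24.4% of the repair gene windows, against 3.87% of windows of genes at or above the median level. GC boxes were present in 29 of 36 genes (80.6%, against 38.2% of all genes), and in 78.0% of the repair gene windows against 61.9% of windows of genes at or above the median level. ETS was present in 5 (13.9%, against 4.31%), and in 12.2% of windows against 7.62% at that level. CCAAT was present in 17 (47.2%, against 41.1%), and in 43.9% of windows against 36.8% at that level. CRE was present in 2 (5.56%, against 2.03%), and in 4.88% of windows against 2.99% at that level. The full p53 site was found in 0 of 36 genes, against 0.0740% of genes (20 of 27025). A site that rare would be missing from almost any 36 genes, and letters outside the windows were not searched. The count therefore says nothing about p53 at these genes.

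All 10 E2F matches are shown with 10 bases on either side because this motif had the widest gap in share between the repair genes and all genes, as a ratio. They come from RefSeq (GRCm38.p6) and are read 5′ to 3′ on the gene's strand, with the match in capitals, and 1 of them, upstream in Rad51c, overlaps a GC box.
Bard1 (chr1:71103164-71103191, minus strand): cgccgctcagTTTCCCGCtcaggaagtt
Brca2 (chr5:150522443-150522470, plus strand): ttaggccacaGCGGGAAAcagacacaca
Chek2 (chr5:110839821-110839848, plus strand): gggattagccGCGGGAAAccaagacgtc
Lig1 (chr7:13278842-13278869, plus strand): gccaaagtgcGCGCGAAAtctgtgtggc
Mdc1 (chr17:35841472-35841499, plus strand): cttcagcctgTTTCCCGCcggtagccgc
Msh6 (chr17:87975055-87975082, plus strand): tcctcccgacTTTCCCGCcagcggcggc
Rad51c (chr11:87404478-87404505, minus strand): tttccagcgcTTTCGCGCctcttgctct
Rad51c (chr11:87404942-87404969, minus strand): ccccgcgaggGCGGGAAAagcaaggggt
Topbp1 (chr9:103305188-103305215, plus strand): cgctcggttgGCGCGAAAgtcggttccc
Xrcc6 (chr15:82016313-82016340, plus strand): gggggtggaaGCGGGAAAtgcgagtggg
The 9 genes with such a match span signalling (Mdc1, Chek2 and Topbp1), recombination (Brca2, Bard1 and Rad51c), end joining (Xrcc6), base excision (Lig1) and mismatch repair (Msh6). Of these 8 were higher on the FGF18 array, with a median of 0.18 and a range from -0.21 (Bard1) to 0.75 (Mdc1). The 26 measured genes whose windows hold no match had 17 higher, a median of 0.14 and a range from -0.32 to 0.98. Those 26 include the dim Palb2, Pms2, Rad54l, Ung and Xrcc4 and the equal Lig3, Lig4 and Ogg1. The 9 with a match all reached the median level over genes. Of the brighter genes of the array 59.4% were higher, with a median difference of 0.07. The sets thus differ in level, and whether genes with a match were more often higher was not tested. The ranges overlap, and a match of letters is a description and not evidence of binding.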

How the data were processed

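RNA from mouse skin, 1 sample per group, was hybridised to Affymetrix Mouse Gene 2.0 ST arrays. The authors processed them with Expression Console of Affymetrix and RMA (background correction, normalization between arrays, summary per transcript cluster), per the submitters' processing notes, which name no version. The deposited table holds linear intensities and not log2 values, judged from their range (1.39 to 11488 in saline, 1.44 to 11532 after FGF18). Arrays have no read depth, and 1 array per group limits the precision.

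Of 41345 clusters, 23521 had 1 gene symbol in the platform annotation, 1814 several and 16010 none. Clusters with 1 symbol were turned into log2(intensity + 1) and averaged per symbol (22180 genes; Python 3.11.15, pandas 2.3.3). All 43 measured repair genes matched RefSeq by Entrez identifier. A named gene below either array's median (14.0 and 13.8) is given no fold. The steps were tested on simulated data. The genes and lists were chosen with earlier results of these data known. For pathways of 5 or more genes the 2 highest and 2 lowest differences are named, with every gene past 1.5-fold, and for the other pathway genes the highest and lowest bright gene of each list; further genes were chosen after their values were seen. No Wrn promoter is printed, and Chek1 took its place. Alternatives are given with the closing observations.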

Additional observations from a re-analysis of the deposited data

How the results depend on the processing

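The median difference of the repair genes stayed between 0.11 (pseudocount of 16) and 0.15 under every alternative run, and each pathway median stayed above 0. Each pathway median moved by less than the spread of 0.24 between probe sets. The medians were themselves smaller than that spread, so this does not show that they held. Centring on the median difference over all genes (0) could move nothing, and taking the brightest cluster could change only Atr. With the filter at the 75th percentile of level 17 repair genes remained, of which 14 were higher and 2 lower. Of the other pathway genes 28 were higher and 14 lower. The share of all genes higher at that level is not given here, so the change of the split was not tested. The count of repair genes at least 1.5-fold higher was 0 with a pseudocount of 16, 1 at or above the median level, 0 at the 75th percentile and 0 at a 2-fold threshold. The corresponding count of other pathway genes was 0 with a pseudocount of 16 and 0 at the 75th percentile. Subtracting the level trend turned the sign of 4 repair genes that were near 0, namely Rad51c (to -0.01), Pms2 (to 0.01) and, between them, Blm and Ercc3, and no other alternative turned any. Of the single repair genes, Palb2 was the 1 that moved by more than 0.24, to 0.43 with a pseudocount of 16. Exo1, Rad50, Nbn, Lig1 and the Fanconi pair have a second role, and placing them by it left medians from 0.05 to 0.22. Base excision then fell from 0.11 to 0.05 and mismatch repair from 0.15 to 0.05, while homologous recombination rose from 0.11 to 0.16. No paired analysis was possible because each group has 1 array. Variation between animals was not measured.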
